A study of Mus musculus with 4 samples.

Results

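The genes described here encode the NFAT transcription factors, the subunits of calcineurin and the Rcan regulators of calcineurin. They were taken by symbol: Nfatc1, Nfatc2, Nfatc3, Nfatc4, Nfat5, Ppp3ca, Ppp3cb, Ppp3r1, Rcan1 and Rcan2, 10 of the 23361 genes in the deposited expression table. Their RNA was compared between Nfatc1+ and Shh+ cells of the mouse hair peg, the stage at which the growing hair follicle extends into the dermis. Between these populations, Nfatc1, whose promoter defined the Nfatc1+ cells, was 5.03-fold higher in them, which checks the sort. The calcineurin catalytic subunit gene Ppp3ca was higher in Nfatc1+ cells by 2.42-fold. Nfatc4 was higher in Shh+ cells by 1.31-fold, a call that did not hold with fewer libraries, and the other 5 tested genes were not called. Nfatc2 and Rcan2 were too low to test.

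Calcineurin is a protein phosphatase that is switched on by calcium through calmodulin. It removes phosphates from the calcium-regulated factors Nfatc1 to Nfatc4, which then enter the nucleus, and kinases that phosphorylate them again return them to the cytoplasm. Nfat5 shares the DNA-binding domain of this family but responds to high tonicity and lacks the calcineurin-binding region. In adult skin, Nfatc1 marks stem cells of the hair follicle bulge, where it is known for keeping them quiescent, and inhibitors of calcineurin promote hair growth.

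The study sequenced RNA from 2 libraries of Nfatc1+ cells and 2 libraries of Shh+ cells, all sorted from embryonic back skin at E17.5. The mice carried Nfatc1-CreER or Shh-CreER, with Rosa-stop-tdTomato, a red reporter that CreER turns on after tamoxifen (here at E15.5), and K14-H2BGFP, a nuclear GFP driven by a promoter of basal epithelial cells. Cells positive for both colours were collected, so every group is a population defined by a promoter that was active around the time of tamoxifen and not by the RNA of the gene at sorting. Skin for Nfatc1+ cells was digested whole in 0.25% trypsin for 16 min at 37°C, while skin for Shh+ cells was first treated with dispase (0.4 mg/ml, 1 h), freed of its epidermis and then digested in trypsin for 10 min. The population and the way of releasing the cells cannot be told apart in any comparison below. The study calls its CreER lines knock-ins, and a gene-level value does not separate such an allele from the normal one. Its effect on the Nfatc1 values was not tested. Nor is it given whether replicate libraries derive from different animals or litters, so each p-value reflects the spread among 4 libraries, and that spread may be technical.

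Expression is given in FPKM, the fragments of a gene divided by its transcript length and by the mapped fragments of the library, a scale on which genes of different length can be compared within a library. Genes were tested between groups with limma on log2(FPKM + 0.5) if their mean was at least 0.5 FPKM, which 12750 genes were, and were called at a Benjamini-Hochberg adjusted p under 0.05 over all of them. A positive log2 fold change means a higher value in Shh+ cells. The added 0.5 shrinks the fold changes of weakly expressed genes, while ratios were taken from mean FPKM with nothing added. In a sorted population, a lower value can mean fewer cells that express a gene or less RNA in each cell, and these cannot be told apart. From the steps between low values, the libraries were estimated at 6720000 to 11520000 mapped fragments, with Shh+ replicate 2 the shallowest. By the same estimate, each of the 8 tested genes rested on at least 167 fragments in every library. The sort was reflected in its own markers, since Krt14, the gene whose promoter drives the GFP, was at 1030 to 1232 FPKM in the 4 libraries.

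Of the 10 genes, 8 passed the filter on low values, 2 were called higher in Nfatc1+ cells and 1 was called higher in Shh+ cells. Over all tested genes, 16.6% were called higher in Nfatc1+ cells and 14.9% higher in Shh+ cells. Without Nfatc1, whose expression marked one of the populations, 7 genes were tested and 1 was called in each direction, which is near the background. For 7 of the 8 genes, and for 6 of 7 without Nfatc1, every library of one group lay above every library of the other, which was so for 70.7% of all tested genes. The median log2 fold change was −0.24 over the 8 genes and 0.0018 over all tested genes.

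**Figure D1:**
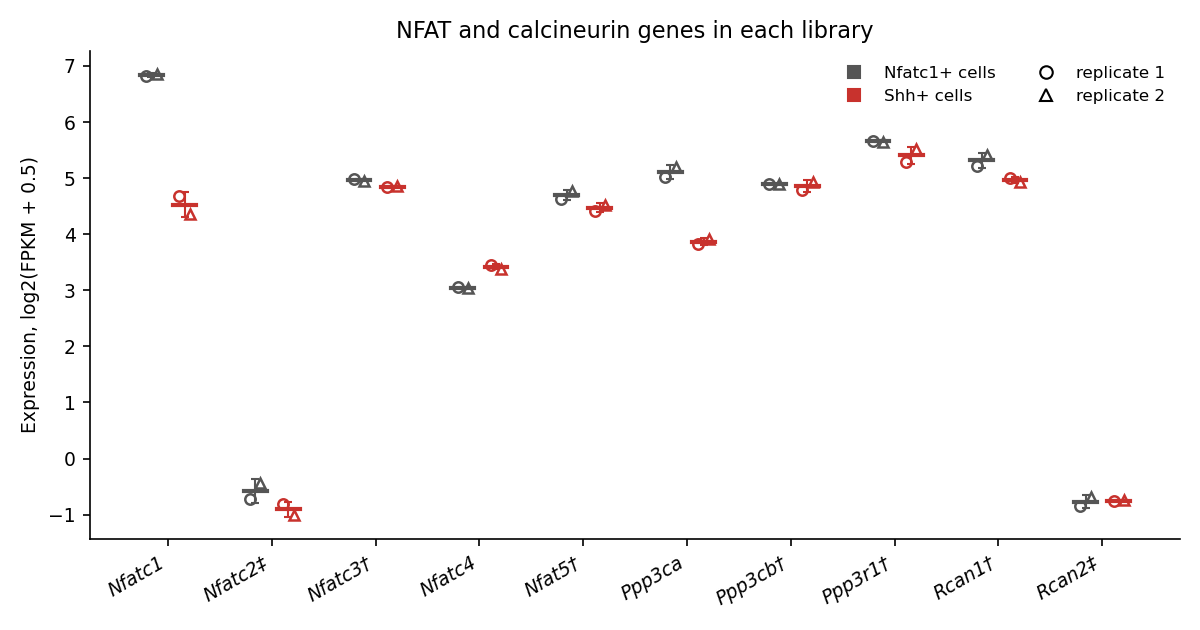
Expression of the 10 genes in each library as log2(FPKM + 0.5), with Nfatc1+ libraries in grey and Shh+ libraries in red. Circles are replicate 1, triangles replicate 2, thick lines the mean of 2 libraries and error bars the SD. Genes without a mark were called, a dagger marks genes that were tested and not called, and a double dagger marks the 2 genes that were not tested. Nfatc1 and Ppp3ca stand apart between the groups, and Nfatc2 and Rcan2 lie at the bottom of the scale in all libraries.

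Nfatc1 (chromosome 18, from 80606205 to 80713071, minus strand, GRCm38) was the most abundant of these genes in Nfatc1+ cells. It was at 112 and 116 FPKM in Nfatc1+ replicates 1 and 2 and at 25.3 and 20.1 FPKM in Shh+ replicates 1 and 2. Both Nfatc1+ libraries were far above both Shh+ libraries, as their labels say. The means were 114 ± 2.69 FPKM and 22.7 ± 3.65 FPKM (SD, n = 2), with a log2 fold change of −2.31 (SE 0.13, 95% confidence interval −2.66 to −1.97, limma adjusted p = 0.000929). This difference checks the sort and is not a finding about the gene. The size of its log2 fold change ranked 249 among the 12750 tested genes, and the Shh+ cells still had Nfatc1 RNA at more than 20 FPKM in each library, a level like that of Nfat5 in the same cells.

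Among the other calcium-regulated factors, Nfatc4 was the one that differed past the threshold. Nfatc4 (chromosome 14, from 55823144 to 55833943, plus strand, GRCm38) encodes a factor known for its part in the growth of heart muscle. It was at 7.80 and 7.72 FPKM in the Nfatc1+ libraries and at 10.4 and 9.96 FPKM in the Shh+ libraries, so the groups did not overlap and the Shh+ libraries were the higher. The log2 fold change was 0.37 (SE 0.08, 95% confidence interval 0.17 to 0.57, limma adjusted p = 0.0250). With 1 library left out, the call ended whichever library it was: adjusted p = 0.109 without Nfatc1+ replicate 1, 0.121 without Nfatc1+ replicate 2, 0.0933 without Shh+ replicate 1 and 0.0682 without Shh+ replicate 2, in a range of 0.0199 to 0.121 over 13 alternative fits.

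Nfatc3 (chromosome 8, from 106058840 to 106130537, plus strand, GRCm38), the most abundant calcium-regulated factor of the Shh+ cells, was almost level between the groups. Its values were 31.0 and 30.4 FPKM in the Nfatc1+ libraries and 28.1 and 28.4 FPKM in the Shh+ libraries. The Nfatc1+ libraries were both slightly the higher, with a log2 fold change of −0.12 (SE 0.07) whose 95% confidence interval, −0.31 to 0.08, includes 0 (limma adjusted p = 0.287). Its exons overlap those of Esrp2 on the opposite strand over 219 bases, and TopHat was run at its defaults, which do not use strand, so reads there cannot be told apart.

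Nfatc2 (chromosome 2, from 168476410 to 168601657, minus strand, GRCm38), a factor best known from T cells, was close to undetected. It was at 0.106 and 0.243 FPKM in Nfatc1+ cells and at 0.0714 FPKM in Shh+ replicate 1, and it was listed at 0 in Shh+ replicate 2. The largest of these values corresponds to an estimated 5.6 to 17.3 fragments, depending on the transcript, so no difference between the groups was detectable at this depth. The immune markers at hand were low as well. Their summed level over 8 genes was 7.52 to 11.97 FPKM in the Nfatc1+ libraries and 5.16 to 7.16 FPKM in the Shh+ libraries, and the T cell gene Cd3e and the Langerhans cell gene Cd207 were listed at 0 in all libraries.

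Nfat5 (chromosome 8, from 107293470 to 107379517, plus strand, GRCm38), the tonicity-responsive factor, was expressed at a level between those of Nfatc3 and Nfatc4. Its values were 24.3 and 26.6 FPKM in the Nfatc1+ libraries and 20.8 and 22.6 FPKM in the Shh+ libraries. All Nfatc1+ values were above all Shh+ values, but the gap between the groups was smaller than the gap between the replicates of either group. The log2 fold change of −0.23 (SE 0.09, 95% confidence interval −0.47 to 0.02) did not pass the test (limma adjusted p = 0.137).

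Because FPKM is per length, the make-up of the family can be read within each library. Nfatc1 supplied 74.3% and 75.2% of the summed FPKM of Nfatc1 to Nfatc4 in the Nfatc1+ libraries, and 39.6% and 34.4% in the Shh+ libraries. Nfatc3 supplied 20.5% and 19.7% in Nfatc1+ cells and 44.0% and 48.6% in Shh+ cells, where it came ahead of Nfatc1 in both libraries. The share of Nfatc4 was 5.16% and 4.999% against 16.3% and 17.0%. Since Nfatc1 is part of each sum and marked the cells, these shares are given as a description. With Nfatc1 taken out, the summed level of Nfatc2 to Nfatc4 was 38.9 and 38.3 FPKM in the Nfatc1+ libraries and 38.6 and 38.4 FPKM in the Shh+ libraries. The ranges of this sum overlapped, so that nearly the whole difference in the summed FPKM of the family, 153 ± 2.29 in Nfatc1+ cells against 61.2 ± 3.81 in Shh+ cells (SD, n = 2), lay in Nfatc1.

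**Figure D2:**
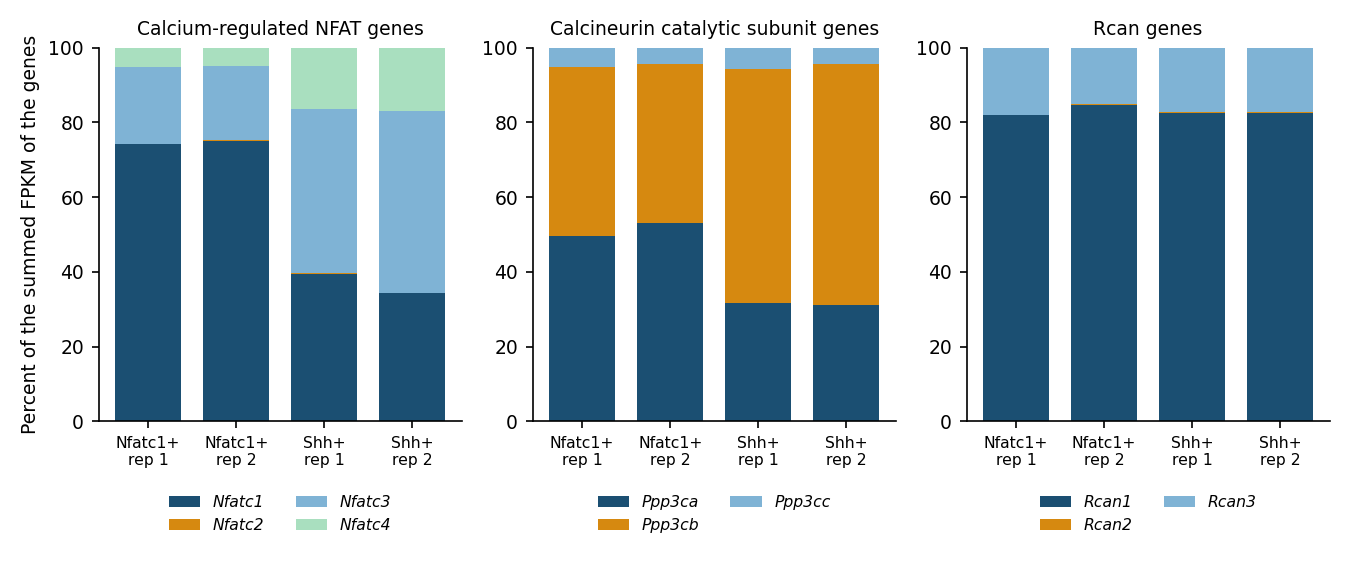
Make-up of 3 gene families in each library, as percent of the summed FPKM of the genes in each panel. The left panel holds Nfatc1 to Nfatc4, the middle panel the calcineurin catalytic subunit genes Ppp3ca, Ppp3cb and Ppp3cc, and the right panel Rcan1, Rcan2 and Rcan3. Nfatc1 and Ppp3ca take larger shares in the 2 Nfatc1+ libraries than in the 2 Shh+ libraries, while the Rcan panel has nearly the same split in all 4.

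Calcineurin is assembled from a catalytic subunit, encoded by Ppp3ca, Ppp3cb or Ppp3cc, and a calcium-binding regulatory subunit, encoded in most tissues by Ppp3r1. Ppp3ca (chromosome 3, from 136670124 to 136937727, plus strand, GRCm38) was at 31.9 and 36.4 FPKM in Nfatc1+ cells and at 13.6 and 14.6 FPKM in Shh+ cells. Both Nfatc1+ libraries were more than 2-fold above both Shh+ libraries. The means were 34.1 ± 3.14 FPKM and 14.1 ± 0.649 FPKM (SD, n = 2), a ratio of 2.42, with a log2 fold change of −1.24 (SE 0.10, 95% confidence interval −1.51 to −0.98, limma adjusted p = 0.00204). The size of this log2 fold change ranked 975 among the 12750 tested genes. Ppp3ca was called in all 13 alternative fits.

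Ppp3cb (chromosome 14, from 20499364 to 20546573, minus strand, GRCm38), its closest relative, did not move with it. Ppp3cb was at 29.2 and 29.2 FPKM in Nfatc1+ cells and at 27.1 and 30.2 FPKM in Shh+ cells. The groups overlapped, and the log2 fold change was −0.03 (SE 0.09, 95% confidence interval −0.26 to 0.20, limma adjusted p = 0.817). Its estimate changed sign over the 13 alternative fits, from −0.11 to 0.05. The third catalytic gene, Ppp3cc, was low, at 3.32 and 2.91 FPKM in the Nfatc1+ libraries and 2.44 and 2.01 FPKM in the Shh+ libraries. Its log2 fold change of −0.41 (SE 0.12) did not pass the test (limma adjusted p = 0.0624). In a fit with the replicate number as a block it did (adjusted p = 0.0375), in a range of 0.0375 to 0.226 over 13 alternative fits.

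On the FPKM scale, the order of the catalytic genes therefore differed between the groups. The ratio of Ppp3ca to Ppp3cb was 1.09 and 1.24 in the Nfatc1+ libraries and 0.503 and 0.482 in the Shh+ libraries, so that Ppp3ca was the higher of the pair in both Nfatc1+ libraries and the lower in both Shh+ libraries. Which gene of the pair is the higher also depends on the transcript lengths used. Annotated coding transcripts span 2194 to 4758 bases for Ppp3ca and 2322 to 3831 bases for Ppp3cb. The log2 difference of the ratios was 1.24. An exact two-sided permutation test gave p = 0.333, the smallest that 2 libraries against 2 can give. As a share of the summed catalytic FPKM, Ppp3ca made up 49.5% and 53.1% in Nfatc1+ cells and 31.6% and 31.1% in Shh+ cells, while Ppp3cc stayed between 4.24% and 5.65% in all libraries. The summed catalytic level was 66.5 ± 2.87 FPKM in the Nfatc1+ libraries and 45.0 ± 2.50 FPKM in the Shh+ libraries (SD, n = 2).

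Ppp3r1 (chromosome 11, from 17159263 to 17200375, plus strand, GRCm38), the regulatory subunit gene, was the most abundant calcineurin gene in every library. It was at 50.4 and 49.5 FPKM in Nfatc1+ cells and at 38.7 and 45.2 FPKM in Shh+ cells. The groups did not overlap, but the Shh+ replicates were further apart from each other than Shh+ replicate 2 was from the Nfatc1+ cells, and the log2 fold change of −0.25 (SE 0.10, 95% confidence interval −0.53 to 0.02) did not pass the test (limma adjusted p = 0.137). Ppp3r1 shares 462 exonic bases with Wdr92 on the same strand, where the reads of these genes can be split in more than 1 way. Ppp3r2, the regulatory subunit gene of the testis, was listed at 0 in all 4 libraries. The summed catalytic level divided by that of Ppp3r1 was 1.28 and 1.38 in Nfatc1+ cells and 1.12 and 1.03 in Shh+ cells, with p = 0.333 by the same exact permutation test.

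**Figure D3:**
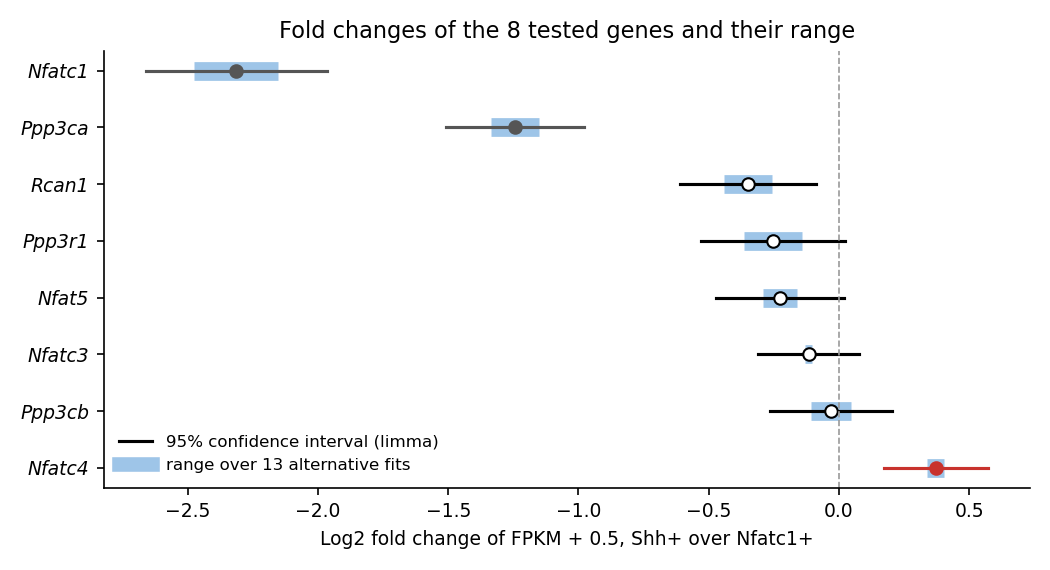
Log2 fold change (Shh+ over Nfatc1+, on FPKM + 0.5) of the 8 tested genes. Points are the limma estimates, filled where the gene was called, lines are 95% confidence intervals, and pale blue bars span the estimates from 13 alternative fits. Nfatc1 and Ppp3ca lie far to the left of 0 and Nfatc4 to the right, while the intervals of Ppp3r1, Nfat5, Nfatc3 and Ppp3cb include 0. The interval of Rcan1 lies below 0, but its adjusted p over all genes missed the threshold.

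The Rcan proteins bind calcineurin and restrain it, and Rcan1 is also a transcriptional target of the pathway. The mouse Rcan1 gene (chromosome 16, from 92391953 to 92470867, minus strand, GRCm38) has alternative first exons, and the internal start is known for its response to calcineurin through NFAT. NFAT proteins bind DNA at a core of GGAAA. RefSeq promoters (GRCm38.p6) were matched for 8 of the 10 genes, and each covers 300 bases, from 250 before to 50 after a transcript start. The core was searched on both strands as GGAAA and TTTCC, and a match of one word cannot overlap a match of the other. It was found in 8 of 13 promoters (61.5%) of these genes and in 61.3% of 32851 promoters, so a match by itself does not set them apart. The Rcan1 starts lie 66091 bases apart. No match was found in the window of the distal start, and 3 were found upstream of the internal start. They are shown because gene-level FPKM sums both starts, and the core stands in capitals, read 5′ to 3′ along the gene. The matches begin 227, 193 and 163 bases before the internal start, and the printed 30-base windows lie at chr16:92400288-92400317, chr16:92400254-92400283 and chr16:92400224-92400253 on the minus strand.
Rcan1 227 upstream: accttagcgcctTTTCCaccctcccgagca
Rcan1 193 upstream: taattagcatagGGAAAatgactaaggtgt
Rcan1 163 upstream: tgacgtcacctcTTTCCagtagaaatttac

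The window of Nfatc4, the factor gene called higher in Shh+ cells, also held 3 matches, which begin 186, 119 and 29 bases before its RefSeq start, in windows at chr14:55824597-55824626, chr14:55824664-55824693 and chr14:55824754-55824783 on the plus strand. Such a count was not particular to Nfatc4 and Rcan1. The window of Ppp3cb, which was not called, held 4 matches, and a window of Nfatc2, which was not tested, held 3. The Nfatc4 matches are given for comparison with those of Rcan1, again with the core in capitals.
Nfatc4 186 upstream: gggctttcggtgGGAAAtgattgtcacaac
Nfatc4 119 upstream: tgaagggaccatTTTCCaattcagtttttt
Nfatc4 29 upstream: ggggcgcgtggtTTTCCcatctcatccatg

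These matches are positions of a short word and not measured binding sites. Rcan1 itself was at 36.9 and 41.9 FPKM in Nfatc1+ cells and at 31.6 and 29.8 FPKM in Shh+ cells. Both Nfatc1+ libraries were above both Shh+ libraries, with means of 39.4 ± 3.57 FPKM and 30.7 ± 1.28 FPKM (SD, n = 2) and a ratio of 1.28. The log2 fold change of −0.35 (SE 0.10, 95% confidence interval −0.61 to −0.09) missed the threshold (limma adjusted p = 0.0581). Rcan1 was called in 3 of 13 alternative fits, with a pseudocount of 1 (adjusted p = 0.0463), with a filter at a mean of 1 FPKM (0.0497) and with the limma-trend prior (0.0158), in a range of 0.0158 to 0.223. Its call thus depended on the settings. The level of Rcan1 relative to the summed catalytic subunits was 0.572 and 0.612 in Nfatc1+ cells and 0.733 and 0.638 in Shh+ cells, so relative to calcineurin RNA it was no higher in Nfatc1+ cells.

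Rcan2 (chromosome 17, from 43801351 to 44039516, plus strand, GRCm38), a related gene of brain and muscle, was at 0.0559 and 0.121 FPKM in Nfatc1+ cells and at 0.0904 and 0.0972 FPKM in Shh+ cells. With at most an estimated 4.1 fragments in any library, no difference was detectable. Rcan3, the remaining family member, was at 8.04 and 7.45 FPKM in the Nfatc1+ libraries and 6.64 and 6.25 FPKM in the Shh+ libraries, with a log2 fold change of −0.25 (SE 0.08, limma adjusted p = 0.0930). The make-up of the family was alike in all libraries, since Rcan1 supplied 82.0% to 84.7% of its summed FPKM and Rcan3 supplied 15.1% to 17.9%.

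Set in order by FPKM, the genes formed different ladders in the populations. The place of a gene among others also depends on the transcript lengths used for FPKM. In Nfatc1+ cells the order was Nfatc1, Ppp3r1, Rcan1, Ppp3ca, Nfatc3, Ppp3cb, Nfat5, Nfatc4, Nfatc2 and Rcan2, and among neighbours only the ranges of Nfatc2 and Rcan2 overlapped. In Shh+ cells the order of the means was Ppp3r1, Rcan1, Ppp3cb, Nfatc3, Nfatc1, Nfat5, Ppp3ca, Nfatc4, Rcan2 and Nfatc2. There, Rcan1 could not be separated from Ppp3cb, nor Ppp3cb from Nfatc3, nor Nfatc1 from Nfat5, because their ranges overlapped. Ppp3ca moved from the fourth place to the seventh.

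The tested genes with the profile most like that of Nfatc1 over the 4 libraries were Ank, Fam132a, Fzd7, Lap3 and Rgma, at Euclidean distances of 0.377 to 0.527 in log2(FPKM + 0.5). Ank, which encodes a pyrophosphate transporter, was the nearest, at 106 and 103 FPKM in the Nfatc1+ libraries and 28.4 and 24.6 FPKM in the Shh+ libraries. Fzd7, a Frizzled receptor of Wnt ligands, was at 108 and 113 FPKM against 29.7 and 27.0 FPKM. Closeness here means a like level in each library and nothing more.

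The rest of the pathway was followed in 55 further genes in 6 lists, of which 49 were tested. Of these, 13 (26.5%) were called higher in Nfatc1+ cells, where 16.6% of all tested genes were, and 7 (14.3%) were called higher in Shh+ cells, where 14.9% were. Their median log2 fold change was −0.07, and 39 of the 49 did not overlap between the groups, where 70.7% of all tested genes did not. The called genes were spread unevenly over the lists. These lists were chosen with earlier results of these data known, so the shares are a description and no test of the pathway. Each list is small and is to be read beside the same shares of all tested genes.

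**Figure D4:**
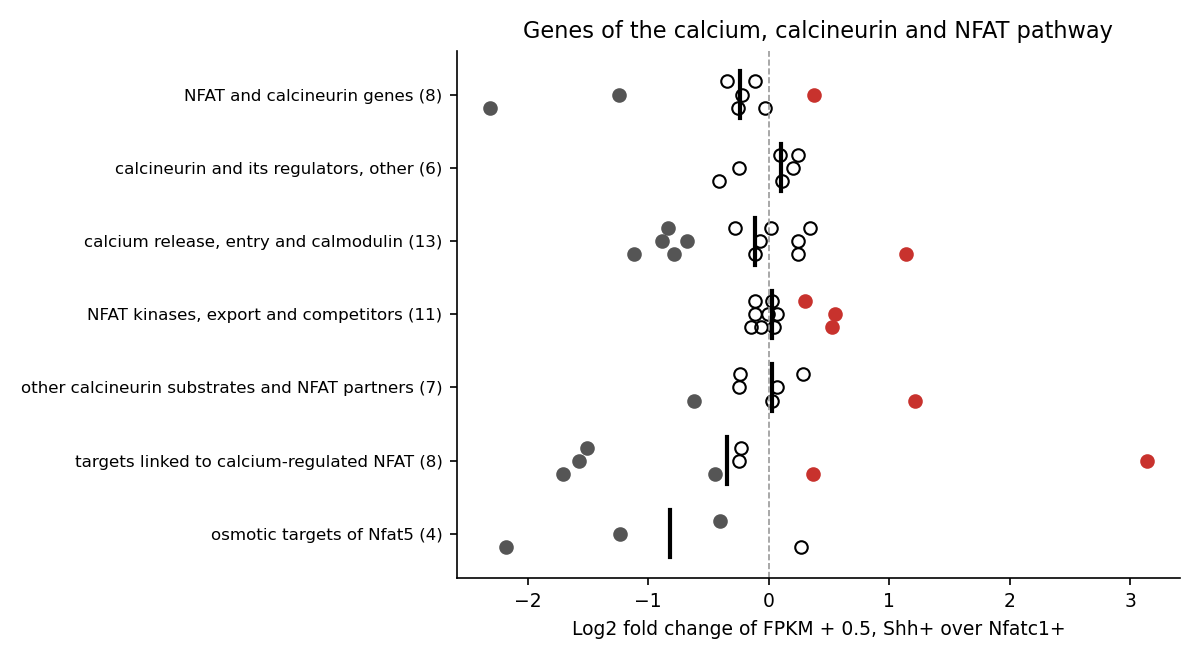
Log2 fold change (Shh+ over Nfatc1+, on FPKM + 0.5) of each tested gene by list, with the number tested in brackets. Filled grey points were called higher in Nfatc1+ cells, filled red points higher in Shh+ cells, open points were not called, and black bars are list medians. The list of calcium release and entry holds 5 grey points and 1 red point, and the far right point, at 3.14, is Tnf.

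Of 13 genes of calcium release and entry, 5 (38.5%) were called higher in Nfatc1+ cells, where 16.6% of all tested genes were. In the direction of Shh+ cells, 1 (7.69%) was called, where 14.9% of all tested genes were. By limma-trend, 6 were called higher in Nfatc1+ cells and 3 higher in Shh+ cells. The list median was −0.11. Stim1 encodes the sensor that reports empty calcium stores in the endoplasmic reticulum. It was at 31.4 and 30.8 FPKM in Nfatc1+ cells and at 14.7 and 13.4 FPKM in Shh+ cells, a 2.21-fold difference with no overlap (log2 fold change −1.12, SE 0.09, limma adjusted p = 0.00182). Its relative Stim2 was at 20.6 and 20.6 FPKM against 10.4 and 11.5 FPKM, a ratio of 1.88 (log2 fold change −0.88, limma adjusted p = 0.00339). Orai1, the pore of the channel that Stim proteins open, was at 3.47 and 4.28 FPKM against 2.06 and 1.84 FPKM (log2 fold change −0.83, limma adjusted p = 0.0106), and its call ended without Shh+ replicate 2 (adjusted p = 0.0558, in a range of 0.00706 to 0.0558). The other 2 genes of this direction, named after their values were seen, were Orai2 (log2 fold change −0.68) and the inositol trisphosphate receptor gene Itpr3 (−0.79).

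Another inositol trisphosphate receptor gene, Itpr1, went the other way. It was at 0.522 and 0.574 FPKM in Nfatc1+ cells and at 1.72 and 1.91 FPKM in Shh+ cells, 3.31-fold higher there (log2 fold change 1.14, SE 0.09, limma adjusted p = 0.00176). On the FPKM scale Itpr1 remained far below Itpr3, which was at 37.9 and 40.1 FPKM in Nfatc1+ cells and at 22.9 and 21.8 FPKM in Shh+ cells. The 3 calmodulin genes were not called.

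Among the other calcineurin regulators, none of 6 tested genes was called by limma. At an unadjusted p under 0.05, 2 lay in the direction of Nfatc1+ cells and 1 in the direction of Shh+ cells, and limma-trend also called 0 and 0. Of 11 kinases, export factors and competitors that act against nuclear NFAT, 0 were called higher in Nfatc1+ cells by limma. At an unadjusted p under 0.05 and by limma-trend this count was 0 as well. In the direction of Shh+ cells, limma called 3 (27.3%), where 14.9% of all tested genes were called. An unadjusted p under 0.05 also gave 3 there, while limma-trend called 2. The 3 genes called by limma were Homer3 and Homer2, scaffold proteins that compete with calcineurin for NFAT, and the casein kinase gene Csnk1e. Homer3 was at 12.6 and 12.6 FPKM in the Nfatc1+ libraries and 18.5 and 18.8 FPKM in the Shh+ libraries (log2 fold change 0.55, SE 0.07, limma adjusted p = 0.00761), and without Nfatc1+ replicate 1 its adjusted p was 0.0502 (range 0.00163 to 0.0502). Homer2 (log2 fold change 0.52) lost its call in 4 of 13 alternative fits and Csnk1e (0.30) in 6 of 13.

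Other substrates of calcineurin and partners of NFAT gave 1 call in each direction among 7 tested genes. Mef2a, a MADS-box factor that works with NFAT in muscle, was at 23.0 and 25.2 FPKM in Nfatc1+ cells and at 51.9 and 61.7 FPKM in Shh+ cells, a ratio of 2.36 (log2 fold change 1.22, SE 0.12, limma adjusted p = 0.00327). Tfeb, a lysosomal regulator that calcineurin dephosphorylates, was at 4.79 and 4.87 FPKM against 2.99 and 2.96 FPKM (log2 fold change −0.62, SE 0.07, limma adjusted p = 0.00558). Both sets of libraries were clear of each other, and both calls were made in all 13 alternative fits.

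Genes linked to calcium-regulated NFAT as targets were called in both directions, 4 higher in Nfatc1+ cells and 2 higher in Shh+ cells of 8 tested, and Il2 and Fasl, both known from T cells, were listed at 0 in every library. Egr2 was at 99.7 and 144 FPKM in the Nfatc1+ libraries and 33.2 and 39.9 FPKM in the Shh+ libraries (log2 fold change −1.71, limma adjusted p = 0.00643). Egr3 was at 86.8 and 121 FPKM against 34.0 and 34.1 FPKM (log2 fold change −1.58, limma adjusted p = 0.00476). Egr2 and Egr3 are also immediate early genes, a class that responds to tissue digestion. A list of 23 immediate early and stress genes, which includes Egr2 and Egr3, had 22 tested genes. Of these, 12 (54.5%) were called higher in Nfatc1+ cells, Egr2 and Egr3 among them, where 16.6% of all tested genes were. In the other direction, 1 (4.5%) was called higher in Shh+ cells, where 14.9% of all tested genes were. The summed level of the list was 4487 to 4879 FPKM in the Nfatc1+ libraries and 3041 to 3356 FPKM in the Shh+ libraries. The part of digestion in the values of Egr2 and Egr3 was not tested.

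Prlr, the prolactin receptor gene, was at 3.73 and 3.28 FPKM in Nfatc1+ cells and at 0.599 and 1.30 FPKM in the Shh+ libraries (log2 fold change −1.51, SE 0.25, limma adjusted p = 0.0152). Prlr lost its call when either Nfatc1+ library was left out, at an adjusted p of 0.0712 without replicate 1 and 0.0577 without replicate 2, in a range of 0.00394 to 0.0712. The fourth gene of this direction, Acp5, a phosphatase gene of osteoclasts named after its values were seen, had a log2 fold change of −0.45 and lost its call in 7 of 13 alternative fits.

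Tnf, which encodes an inflammatory cytokine, was the largest of the changes toward Shh+ cells in these lists. It was at 1.65 and 4.52 FPKM in Nfatc1+ cells and at 22.5 and 35.9 FPKM in Shh+ cells, a ratio of 9.46 (log2 fold change 3.14, SE 0.47, limma adjusted p = 0.0108). The replicates differed widely in both groups, with a log2 fold change of 2.53 without Nfatc1+ replicate 1 and 3.75 without Nfatc1+ replicate 2. The call ended without Shh+ replicate 2 (adjusted p = 0.0573, range 0.000954 to 0.0573). Of the 8 immune markers, 4 were tested and 1 was called, the mast cell gene Cpa3, which was higher in Nfatc1+ cells (6.72 and 8.75 FPKM against 4.38 and 5.32 FPKM, limma adjusted p = 0.0499) and made up most of their sum. The part of immune cells in the Tnf values was not tested. Cdk4, a cell cycle kinase gene that NFAT factors can repress, was at 330 and 305 FPKM in Nfatc1+ cells and at 401 and 419 FPKM in Shh+ cells, a ratio of 1.29 (log2 fold change 0.37, SE 0.08, limma adjusted p = 0.0334). With 1 library left out, the Cdk4 call ended in every case, with adjusted p from 0.0880 to 0.156, and it also ended with the replicate number as a block (0.0597), in a range of 0.00453 to 0.156.

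Of 4 tested osmotic targets of Nfat5, limma called 3 higher in Nfatc1+ cells and 0 higher in Shh+ cells. Over all tested genes, these shares were 16.6% and 14.9%, and 4 genes are too few to compare with them. The counts were the same by limma-trend and at an unadjusted p under 0.05, and the median log2 fold change was −0.82. Not all of the calls held in the alternative fits. Hspa4l, a heat shock protein gene, was at 15.7 and 15.9 FPKM in Nfatc1+ cells and at 3.63 and 2.60 FPKM in Shh+ cells, a ratio of 5.06 (log2 fold change −2.18, SE 0.16, limma adjusted p = 0.00154). Akr1b3, the aldose reductase that makes sorbitol, was at 22.9 and 14.96 FPKM against 9.47 and 6.09 FPKM (log2 fold change −1.23, SE 0.29, limma adjusted p = 0.0373) and lost its call in 5 of 13 alternative fits. The taurine transporter gene Slc6a6 (log2 fold change −0.41, limma adjusted p = 0.0187) lost its call whenever 1 library was left out. Slc5a3, the myo-inositol transporter gene, chosen here after its values were seen, was at 1.74 and 2.32 FPKM in the Nfatc1+ libraries and 2.67 and 2.39 FPKM in the Shh+ libraries and was not called (limma adjusted p = 0.210). The betaine transporter gene Slc6a12 was listed at 0 in every library.

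Markers of other skin cell types were set beside these values. Over all tested genes, 16.6% were called higher in Nfatc1+ cells and 14.9% higher in Shh+ cells. Endothelial markers, of interest because Nfatc1 is also expressed in some endothelial cells, summed to 4.03 to 6.01 FPKM over 7 genes in Nfatc1+ cells and 4.94 to 5.34 FPKM in Shh+ cells, and limma called 0 of 5 tested, as did limma-trend and an unadjusted p under 0.05. Of 7 sebaceous gland genes, 6 (85.7%) were called higher in Nfatc1+ cells, and the list sums were 218 to 239 FPKM against 81.9 to 102 FPKM. The gene not called, Fasn, lay the other way, at 35.8 and 38.8 FPKM in Nfatc1+ cells and 54.3 and 41.5 FPKM in Shh+ cells. Of 7 Merkel cell genes, 5 (71.4%) were called higher in Nfatc1+ cells, with sums of 52.7 to 59.7 FPKM against 23.2 to 27.4 FPKM. Fibroblast genes summed to 246 to 496 FPKM in the Nfatc1+ libraries and 182 to 220 FPKM in the Shh+ libraries over 6 genes, with none called by limma and 1 higher in Nfatc1+ cells at an unadjusted p under 0.05 and by limma-trend. Melanocyte genes differed in their sum between the replicates of each group, from 30.05 to 62.4 FPKM and from 7.83 to 39.9 FPKM. Of these 7 genes, 1 was called higher in Nfatc1+ cells. It was Mitf, at 9.74 and 12.3 FPKM against 0.860 and 1.29 FPKM, the only gene of the list whose groups did not overlap. Schwann and neuronal genes summed to 9.11 to 10.6 FPKM against 12.7 to 14.0 FPKM over 6 genes, with 1 called higher in Shh+ cells. Muscle genes summed to 0.751 to 1.197 FPKM against 0.929 to 1.15 FPKM, with 1 tested and called higher in Shh+ cells. That gene, Actc1, was near the filter, at 0.350 and 0.377 FPKM against 0.755 and 0.608 FPKM, and limma-trend did not call it. Of the 5 epithelial genes, 3 (60%) were called higher in Nfatc1+ cells, with sums of 6205 to 6255 FPKM against 4002 to 4027 FPKM. Whether the epithelial, sebaceous or Merkel cell share of the sort contributes to the difference in Ppp3ca was not tested.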

How the data were processed

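RNA-seq libraries of Nfatc1+ and Shh+ cells were used, 2 of each, grouped by their titles. The authors mapped reads with TopHat (2.0.13) to mm10 and made FPKM values with Cufflinks (2.2.1). HTSeq is also named in the submitters' processing notes, with no role given. The deposited FPKM values per gene symbol hold no counts, and 0 columns were set aside. Values were tested in R 4.3.3 with limma 3.58.1 (lmFit, eBayes) on log2(FPKM + 0.5) for genes averaging 0.5 FPKM or more, with all 4 libraries, no covariate and Benjamini-Hochberg adjustment. The script was tested on simulated data. Low FPKM values are steps of whole fragments. Among 667 to 713 low values a library, 77.4% to 82.0% lay within 0.15 of a whole number, which gives depth as an estimate only, so no count model was run. Gene positions come from GENCODE M21 (GRCm38), promoters from RefSeq (GRCm38.p6).

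The genes and lists were chosen with earlier results of these data known. Named were all 10 genes, up to 3 called genes per direction in each pathway list, Ppp3cc, Ppp3r2, Rcan3, Cdk4 and the 5 genes nearest to Nfatc1. Orai2, Itpr3, Acp5, Slc5a3, Il2, Fasl, Slc6a12 and individual marker genes were named outside this rule, after their values were seen. Alternatives were pseudocounts of 0.1 and 1, filters of none and 1 FPKM, upper-quartile, median-of-ratios and quantile scaling, limma-trend, a replicate block, leaving out each library, and an unadjusted p under 0.01 with a ratio above 2. A fit without 1 library assumes that the lone library varies like the other group.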

Additional observations from a re-analysis of the deposited data

How the results depend on the processing

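Nfatc1 and Ppp3ca were called higher in Nfatc1+ cells in every alternative. The count of these genes higher in Shh+ cells fell from 1 to 0 (0 to 0) with any 1 library left out, where 1 remained at an unadjusted p under 0.05 each time, and to 0 with an unadjusted p under 0.01 and a ratio above 2. Under that rule pathway genes fell from 13 to 5 higher in Nfatc1+ cells and from 7 to 3 higher in Shh+ cells. With 1 library left out, the latter were 3 to 5: 4 when Shh+ replicate 1 was dropped, and 3 when Nfatc1+ replicate 1 or Shh+ replicate 2 was. Over all genes, leaving out 1 library gave 1191 to 1403 calls higher in Nfatc1+ cells and 1036 to 1171 higher in Shh+ cells, against 2111 and 1898. Such fits have fewer residual degrees of freedom.

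With the replicate number as a block, the calls were 2 and 1 for these genes, 13 and 5 for pathway genes, and 1980 and 1719 for all genes. The replicate differences of the groups correlated at 0.149 over 7257 genes, but with 2 pairs the libraries share only a number. Over the single genes and their alternatives, a call was kept in 259 cases and lost in 40, genes without a call stayed without one in 87 and gained one in 4, and no called gene reversed. No scaling moved the median of all genes by more than 0.0146 on the log2 scale. Low values such as those of Nfatc2 and Rcan2 are limited by depth, most in Shh+ replicate 2.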
